A study of Mus musculus with 6 samples.

Results

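The 40 genes described here build ribosomes: they encode RNA polymerase I subunits and nucleolar regulators, rRNA processing and assembly factors, and enzymes of polyamine and nucleotide synthesis. They were taken by symbol, and all 40 were found among the 23420 genes of the count tables. All 40 also passed the filter on low counts, which 12653 genes passed. RNA came from LSK cells of mouse bone marrow, a lineage-negative gate with Sca-1 and c-Kit that contains blood stem cells and early progenitors. One library was sequenced per mouse, from 3 bcat(ex3)osb mice (called mutants, numbered 1 to 3) and 3 wild-type (WT) littermates. The bcat(ex3)osb allele keeps β-catenin signalling switched on in osteoblasts, which form bone, and no treatment is named in the labels for either group. Neither the promoter that drives the allele nor the age of the mice is stated in the labels. The comparison asks whether the ribosome-building transcripts of the blood progenitors differ between the genotypes, and how they stand beside Myc, in a study of myeloid malignancies.

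Ribosomes are made in the nucleolus. RNA polymerase I transcribes the precursor of the large rRNAs, small nucleolar RNPs (snoRNPs) guide its chemical modification, and assembly factors cleave and fold it into the small and the large subunit. MYC, a transcription factor that drives growth, is known to bind the E-box CACGTG and to act on many of these genes, among them Odc1, Ncl and Nop56. Blood stem cells at rest make little protein, and progenitors that enter growth make more.

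The libraries held between 15431235 and 19956774 counts, with between 13423 and 15102 genes detected. One library, mutant 2, lay far from the rest along principal component 1 (50.8% of the variance). Xist and Y-linked counts marked mutants 1 and 2 as male and the other 4 mice as female. Member genes had between 313 counts (Noc3l) and 21871 counts (Ncl) in a library. The sorting markers were present in every library: Kit was between 323 and 1002 CPM (counts scaled to library size by TMM). Ly6a, which encodes Sca-1, lay between 65.9 and 81.5 CPM in mutants and between 148 and 162 CPM in WT littermates. Ctnnb1, which encodes β-catenin, lay between 264 and 323 CPM in mutant and 263 and 473 CPM in WT littermates, and since the allele acts in osteoblasts these levels do not check the labels.

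The E-box was looked for because Myc was the gene against which the members were set. Its 6 letters CACGTG, which read the same on both strands, were searched in RefSeq promoter windows (GRCm38.p6) from 250 bases before to 50 bases after each gene start. Windows were found for 34 of the 40 members, and 7 of the 34 (20.6%) held the motif. The share was 19.3% of 119 other genes of the pathway, 11.8% of 9408 tested genes with a window and 8.09% of all 27025 genes with a window. Bop1, Rrs1, Fbl, Tcof1, Rrp12 and Srm had no window, and Odc1, Ncl and Nop56 had windows without the motif. Sites outside the windows were not searched. The members' sites are given as stretches of up to 30 bases, 5′ to 3′ on the gene's strand, with the E-box in capitals. Pes1 (chr11:3963965-3963994, plus strand), Wdr43 (chr17:71616220-71616249, plus strand), Ltv1 (chr10:13193092-13193121, minus strand), Utp20 (chr10:88826765-88826789, minus strand) and Mybbp1a (chr11:72441355-72441376, plus strand) hold it just after the gene start. Nop2 (chr6:125131811-125131840, plus strand) and Nme1 (chr11:93968273-93968302, minus strand) hold it 60 and 18 bases before the start.
Pes1: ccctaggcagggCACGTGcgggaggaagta
Wdr43: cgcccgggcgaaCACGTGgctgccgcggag
Ltv1: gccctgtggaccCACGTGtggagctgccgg
Utp20: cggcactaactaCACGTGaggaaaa
Mybbp1a: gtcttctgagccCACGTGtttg
Nop2: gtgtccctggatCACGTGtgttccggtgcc
Nme1: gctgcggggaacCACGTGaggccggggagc
Nme1 also held the motif in the window of its second annotated start. A match is a description of these letters and not of a bound site. The 7 members with the E-box had a median log2 fold change of 0.18, mutant over WT, with all 7 positive, and the 27 members with a window but no E-box had a median of 0.20, with 20 positive.

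A second shared feature of the members is that several carry snoRNA genes in their own bodies. By GENCODE M21 on the same assembly, 8 of 40 members (20%) held at least 1 snoRNA gene on their strand, together 22, against 1.75% of 11859 tested genes that matched. The 8 were Ncl, Nop56, Nop58, Dkc1, Wdr43, Ppan, Gnl3 and Odc1, with 5 snoRNA genes in Nop56 and 4 in Nop58. Nop56 and Nop58 encode core proteins of a snoRNP themselves, the box C/D class. The median log2 fold change was 0.12 in these 8 and 0.20 in the other 32.

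Levels per gene length (FPKM, as deposited by the authors) spanned from Nme1, a nucleoside diphosphate kinase, to Utp20, a scaffold of the small-subunit processome. Over the 6 libraries Nme1 averaged 315 FPKM, Nop56 249, Srm 234, Nhp2 217 and Nop58 152, and these were the 5 highest. The lowest were Heatr1 at 14.7, Bysl at 13.5, Noc3l at 7.998 and Utp20 at 6.12 FPKM. The order of near neighbours lies within their spread: Nop56 was at 244 ± 4.88 FPKM and Srm at 222 ± 39.8 FPKM in WT littermates (SD, n = 3). RNA polymerase I's own 2 large subunits were low, with Polr1b at 25.2 ± 9.42 and Polr1a at 14.7 ± 5.09 FPKM in WT littermates. The transcripts of the box C/D core proteins among the 40 differed in level: Nop56 lay above Nop58 at 150 ± 7.53 and Fbl at 114 ± 29.0 FPKM. Protein was not measured. Of the box H/ACA core genes among the 40, Nhp2 stood at 186 ± 59.8, Dkc1 at 110 ± 0.65 and Gar1 at 74.3 ± 20.3 FPKM. Nop10, a core gene outside the 40, stood higher, at 463 ± 218 FPKM in WT littermates.

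**Figure D1:**
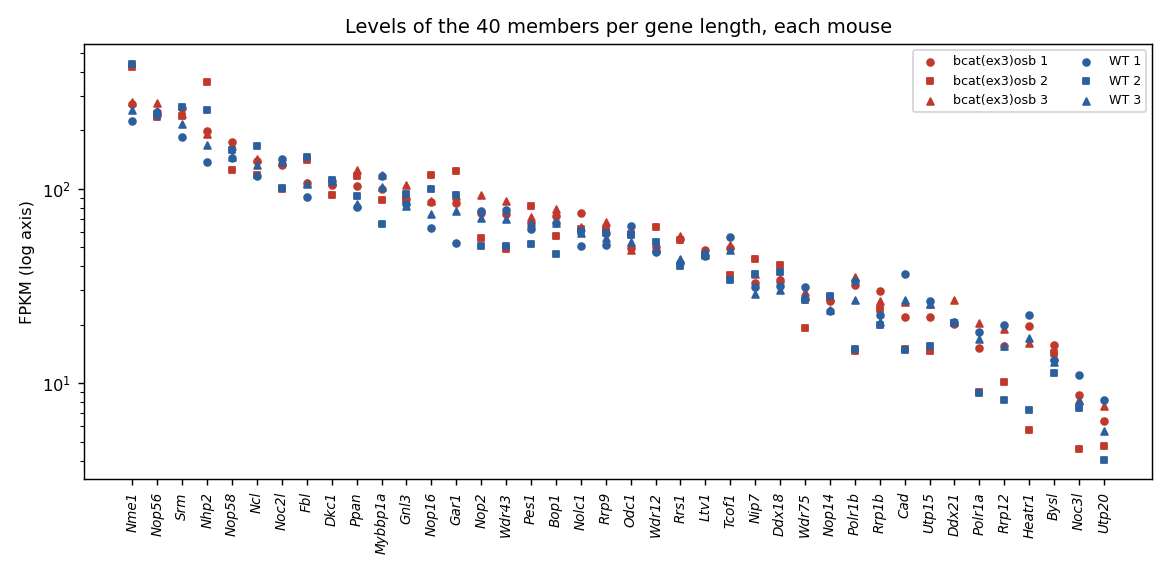
FPKM (log axis) of each of the 40 members in each of the 6 libraries, in order of the mean over libraries; red points are mutant and blue points WT littermates, and the symbol gives the mouse number. Levels run from 315 FPKM for Nme1 to 6.12 FPKM for Utp20, and for many members the squares of mutant 2 and WT 2 lie together, away from the other mice.

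Between the genotypes the members shifted little, and no member passed the test. By edgeR's quasi-likelihood test with Benjamini-Hochberg adjustment over all genes, 0 members were called higher and 0 lower, where the share called over all genes was 0% in each direction. The lowest adjusted p of a member was 0.595. With no adjustment, 3 of 40 members (7.5%) had a p under 0.05 on the higher side and 0 on the lower, against 3.43% and 3.13% of all genes. Neither DESeq2 nor limma-voom called a member, while DESeq2 called 0.799% of genes higher and 0.538% lower. The direction was uneven all the same: 33 of 40 members (82.5%) had a positive log2 fold change, against 50.3% of all genes tested. By scale, the positive members numbered 33 with RLE, 32 with upper-quartile scaling and 30 on log2 FPKM, where 40.4% of all genes were positive. Without WT 2 the positive members numbered 26. The member median was 0.18, a 1.13-fold difference, against 0.00 over all genes. The range ran from -0.24 for Noc3l to 0.51 for Gar1, and standard errors ran from 0.16 to 0.48. In bulk RNA of a sorted fraction, fewer cells of a type and less RNA per cell cannot be told apart.

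Mutant mice lay above all WT littermates without overlap for 8 of 40 members (20%), against 6.89% of all genes, and below them for 0, against 7.67%. The 8 were Rrs1, Ppan, Rrp1b, Pes1, Nolc1, Bysl, Rrp9 and Nop56. With 3 mice a side the smallest two-sided p of an exact permutation test is 0.1, so lack of overlap alone cannot reach 0.05 by such a test. The edgeR and DESeq2 tests used for the calls have no such floor. By GENCODE M21 on GRCm38, Rrs1 lies at chr1:9545408-9547455, Ppan at chr9:20888175-20892178, Rrp1b at chr17:32036100-32062865 and Pes1 at chr11:3963975-3980004. Nolc1 lies at chr19:46075863-46085530, Bysl at chr17:47599331-47611492, Rrp9 at chr9:106475963-106485424 and Nop56 at chr2:130274430-130279313. Of the 8, Nop56, Rrp9, Bysl, Pes1 and Rrp1b share exonic bases with a gene on the other strand, so part of their counts may belong to it if strand was not used in counting. The set depended on the scale. All 8 stayed apart under RLE scaling, with Bop1 added (7.25% of all genes higher), and 5 of 8 under upper-quartile scaling (5.65%). On the deposited FPKM 7 of 8 stayed apart, without Nop56 (4.99%), and Dkc1 was lower without overlap, as were 9.35% of all genes.

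**Figure D2:**
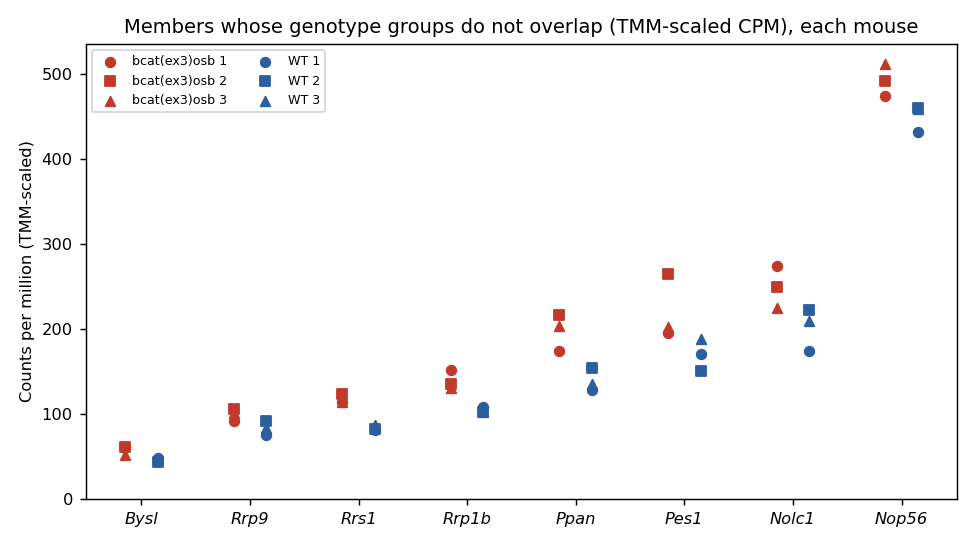
CPM (TMM-scaled, axis from 0) in each mouse for the 8 members whose mutant values (red) all lie above the WT values (blue); symbols give the mouse number. The gap is clearest for Rrs1 (114 to 123 against 80.8 to 86.5 CPM) and narrow for Nop56 (475 to 512 against 432 to 461 CPM).

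The genes of large-subunit assembly had the highest median of the roles with more than 3 members. Of 13 members 12 were positive (11 on log2 FPKM, where Noc2l turned to -0.03), the median was 0.29, and 3 had an unadjusted p under 0.05. Rrs1, which helps to bring the 5S RNP into the pre-60S particle, was at 114, 123 and 114 CPM in mutants 1, 2 and 3 and at 80.8, 82.0 and 86.5 CPM in WT littermates 1, 2 and 3. The genotypes did not overlap and each was tight, with a log2 fold change of 0.49 ± 0.16 (SE; edgeR adjusted p = 0.595). Ppan, an assembly factor of the same subunit, was at 174, 216 and 203 CPM in mutant and 128, 154 and 135 CPM in WT littermates. Its log2 fold change was 0.51 ± 0.18, with an edgeR adjusted p of 0.653, and the lowest mutant mouse lay above the highest WT mouse. Rrp1b, a nucleolar protein of pre-rRNA processing, was at 152, 135 and 130.5 CPM against 108, 102 and 102 CPM (0.42 ± 0.17; edgeR adjusted p = 0.724).

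Pes1, Bop1 and Wdr12 encode the PeBoW complex, which is needed to process the rRNAs of the large subunit. Pes1 was at 196, 265 and 203 CPM in mutants and at 170.3, 151 and 188 CPM in WT littermates, with no overlap and a log2 fold change of 0.38 ± 0.20. Bop1 was at 180.3, 156 and 189 CPM against 156, 114 and 160.5 CPM, and here mutant 2 lay within the WT range. Wdr12 was at 169, 239 and 165 CPM against 151, 181 and 161 CPM, again with overlap. The 3 partners thus had positive values of 0.38, 0.29 and 0.22, each within 2 standard errors of 0. Without mutant 2, Pes1 was 0.23 and Wdr12 0.03, and without WT 2, Bop1 was 0.15. Noc3l, which pairs with other NOC proteins in pre-60S maturation, was the lowest of the 40 at -0.24 ± 0.27. It was at 34.6, 20.2 and 31.8 CPM in mutants and at 41.5, 29.8 and 31.2 CPM in WT littermates, so the groups overlapped, mutant 2 was lowest, and the log2 fold change was -0.04 without it. The other members of this role, Nop2, Nop16, Nip7, Noc2l, Ddx18 and Gnl3, were positive and overlapped between genotypes.

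Small-subunit factors were more mixed, with 7 of 10 positive and a median of 0.13 (5 of 10 and -0.02 without WT 2). Bysl, which acts late in 40S maturation, was at 60.8, 61.4 and 51.6 CPM in mutant and 48.2, 43.4 and 48.3 CPM in WT littermates. The groups did not overlap, and the log2 fold change was 0.31 ± 0.18 (edgeR adjusted p = 0.842). Rrp9, the U3 snoRNP protein, was at 92.0, 106 and 101 CPM against 74.8, 91.3 and 83.0 CPM, with mutant 1 just above WT 2 (0.26 ± 0.18; edgeR adjusted p = 0.868). Wdr43, Wdr75, Heatr1 and Utp15 belong to the early-binding subcomplex that also links to rDNA transcription. Of these 4, 3 were negative, all but Wdr43, each by less than its standard error. With the length trend removed only Wdr75 was negative, and with a sex covariate or among females all were positive. Heatr1 varied widely across mice: it was at 134, 43.2 and 107 CPM in mutant and 144, 49.5 and 112 CPM in WT littermates, low in the mouse numbered 2 of each genotype. Nop14, Ltv1, Utp20 and Rrp12 had positive values and overlapped between genotypes.

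The snoRNP core genes come in 2 classes. Box H/ACA snoRNPs carry out pseudouridylation, and of their 3 genes Gar1 and Nhp2 had positive values while Dkc1, the pseudouridine synthase itself, was near 0. Gar1 was at 108, 173 and 114 CPM in mutants and at 63.4, 119 and 95.0 CPM in WT littermates. WT 2 lay above mutants 1 and 3, and the log2 fold change was 0.51 ± 0.29 (edgeR adjusted p = 0.824). Nhp2 was at 201, 394 and 188 CPM against 131, 255 and 164 CPM (0.51 ± 0.36; edgeR adjusted p = 0.873), again highest in the mice numbered 2. Single libraries moved both: Nhp2 was 0.09 without mutant 2 and 0.82 without WT 2, and Gar1 was 0.26 and 0.73. Nhp2 was also 0.04 with a sex covariate and 0.02 among females. Dkc1 was at 295, 289 and 297 CPM against 293, 311 and 297 CPM, the most even of the 3 across mice.

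Box C/D snoRNPs carry out 2′-O-methylation, and their 3 genes had nearly equal small values. Nop56 was at 475, 492 and 512 CPM in mutant and 432, 461 and 459.7 CPM in WT littermates, a log2 fold change of 0.13 ± 0.16. Nop58 was at 345, 273 and 319.6 CPM against 270.1, 314 and 281 CPM (0.12 ± 0.18, and 0.04 without mutant 1), with mutant 2 inside the WT range. Fbl, the methyltransferase fibrillarin, was at 125, 180.4 and 121 CPM against 99.1, 170.2 and 119 CPM (0.14 ± 0.26). Its sign turned in the model with sex (-0.09), among the 4 females (-0.11) and without mutant 2 (-0.07) or WT 1 (-0.02).

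Among the RNA polymerase I genes and nucleolar regulators all 7 were positive, with a median of 0.17, except that Ncl turned negative under upper-quartile scaling and Ncl and Tcof1 did on log2 FPKM. That count rested on single libraries: 3 of 7 were positive without WT 2, where Polr1a (-0.16), Polr1b (-0.08), Tcof1 (-0.10) and Mybbp1a (-0.01) were negative, and 5 of 7 without mutant 3. Nolc1, a chaperone of snoRNPs, was at 275, 250.1 and 225 CPM in mutant and 174, 222 and 209 CPM in WT littermates, narrowly without overlap (0.31 ± 0.18; edgeR adjusted p = 0.851). Ddx21, a helicase of rRNA transcription and processing, was at 96.6, 108 and 123 CPM against 93.1, 97.1 and 95.0 CPM, so mutant 1 lay within the WT range (0.20 ± 0.18, and 0.10 without mutant 3). Ncl, the most abundant of the 40 by CPM, encodes nucleolin, and was at 1158, 1084 and 1145 CPM against 912, 1378 and 1064 CPM. The mutants all lay between WT 1 and WT 2, and the log2 fold change was 0.01 ± 0.20 (-0.03 under upper-quartile scaling). Polr1b was at 128, 65.0 and 137 CPM against 127, 60.4 and 105 CPM (0.17 ± 0.36), low in both mice numbered 2, and its sign turned without mutant 3 (-0.01) as well. Polr1a, Tcof1 and Mybbp1a also overlapped between genotypes.

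The growth enzymes leaned neither way, with 2 of 4 positive and a median of 0.05. Odc1, ornithine decarboxylase, makes the first polyamine, and was at 127, 165 and 121 CPM in mutant and 155, 148 and 132 CPM in WT littermates. Both the highest and the lowest of the 6 were mutants, and the log2 fold change was -0.08 ± 0.19. Srm, spermidine synthase, acts downstream of it and was at 349, 349 and 313 CPM against 233, 352 and 278 CPM, where WT 2 lay above all mutants (0.23 ± 0.20, and 0.10 without WT 1). Cad, the enzyme that begins pyrimidine synthesis, was at 156, 119 and 180.5 CPM against 247, 106 and 185 CPM (-0.24 ± 0.32), and its sign turned without WT 1 (0.06). Nme1 was at 337, 580.2 and 336 CPM against 259, 544 and 305 CPM, high in both mice numbered 2.

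**Figure D3:**
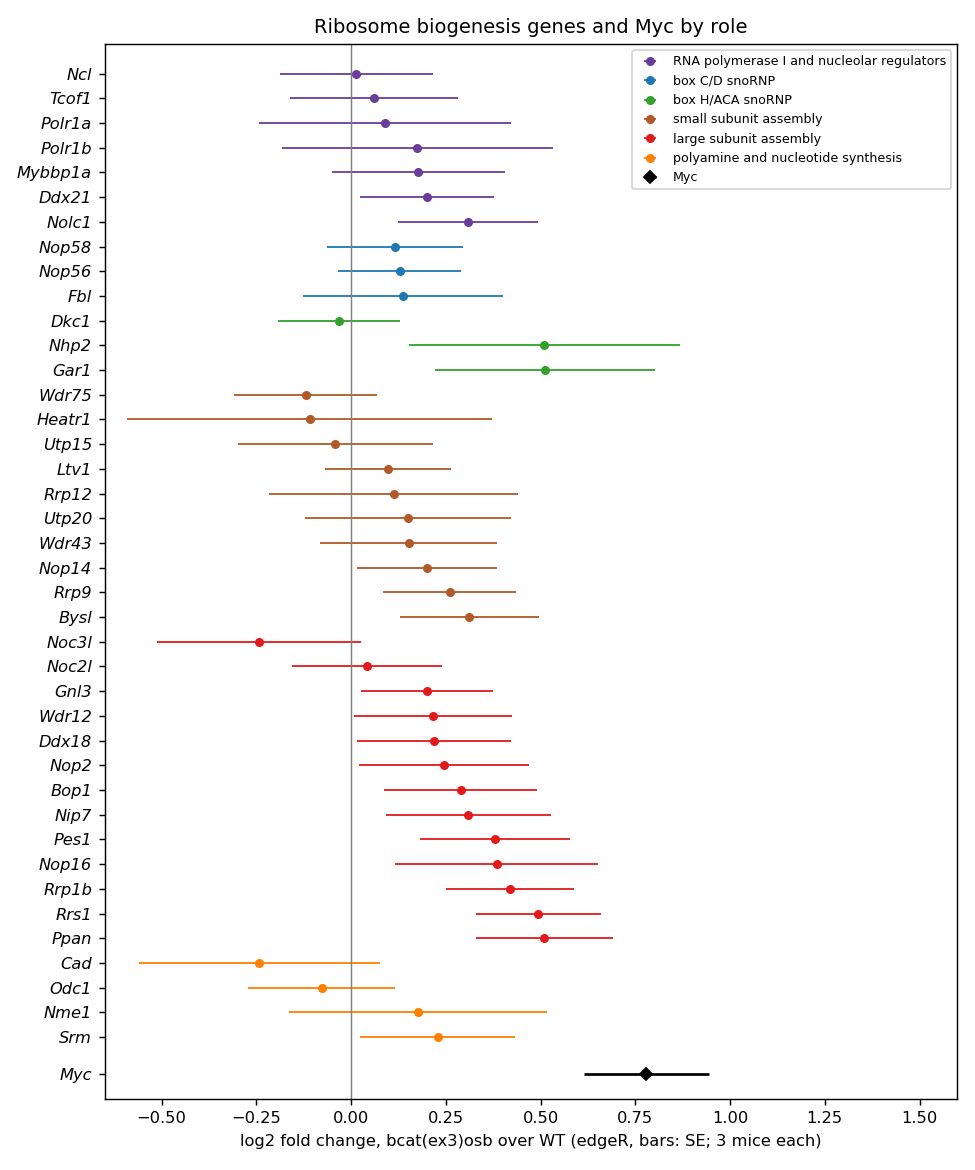
Log2 fold change, mutant over WT, of the 40 members by role and of Myc (points, edgeR; bars, SE; 3 mice per genotype). Of the members 33 lie to the right of 0 and none reaches Myc at 0.78.

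Myc (chr15:61985391-61990374, GRCm38) differed more between genotypes than each of the 40 members. It was at 1012, 1011 and 1079.7 CPM in mutants 1, 2 and 3 and at 639, 570.1 and 598 CPM in WT littermates 1, 2 and 3. The genotypes were far apart, and the log2 fold change was 0.78 ± 0.17, a 1.72-fold difference, with an edgeR adjusted p of 0.333 and a DESeq2 adjusted p of 0.000202. Of 40 members 0 had a log2 fold change above that of Myc. The distance from the highest WT to the lowest mutant mouse was 372 CPM, against a range of 69.2 CPM within WT and 68.8 CPM within mutants. The 6 Myc values thus form separate clusters by genotype, so no pooled correlation of members with Myc is given, and the relation within a genotype was not tested.

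The values can still be set side by side. Relative to the WT mean, the members' median was 0.16, 0.18 and 0.18 log2 units in mutants 1, 2 and 3, where Myc was 0.75, 0.75 and 0.84. In WT littermates 1, 2 and 3 the members' median was -0.03, 0.03 and 0.00, where Myc was 0.09, -0.08 and -0.01. The 3 mutant medians lay above the 3 WT medians. Behind equal medians the spread differed: the middle 50% of members ran from 0.07 to 0.26 in mutant 1, from -0.14 to 0.49 in mutant 2 and from 0.08 to 0.36 in mutant 3. As a share of raw counts, the 40 members took 0.794%, 0.743% and 0.837% in mutants and 0.750%, 0.750% and 0.748% in WT littermates. Mutant 2 thus lay below WT on this measure, which is not TMM-scaled. Summed as TMM-scaled CPM, the members took 7987, 8245 and 8168 in mutants and 7099, 7522 and 7266 in WT littermates. On that scale all mutants lay above all WT littermates, and mutant 2, with a TMM factor of 0.902, was highest.

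**Figure D4:**
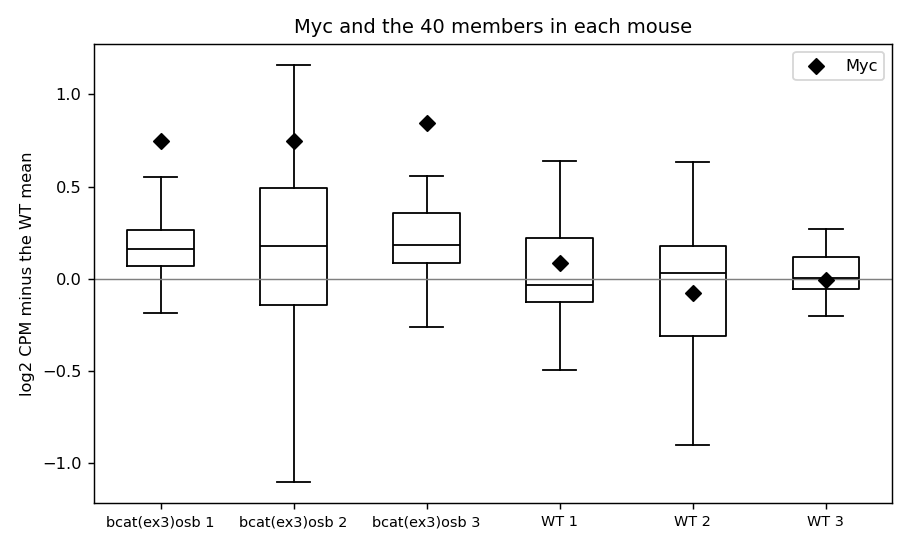
Log2 CPM minus the WT mean in each of the 6 mice: boxes give the quartiles and median of the 40 members, whiskers their full range, and diamonds Myc. Medians are between 0.16 and 0.18 in mutants and between -0.03 and 0.03 in WT littermates, with Myc between 0.75 and 0.84 in mutants, and the widest range is that of mutant 2.

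Within a genotype the members sorted by gene length. Short members were high in mutant 2 and WT 2 and long members low, relative to their genotype's mean, and the other 4 libraries showed the opposite order. The 12 members under 2000 bases had a median deviation of 0.11 in mutant 2 and 0.24 in WT 2, and between -0.22 and -0.04 in the other mice. The 11 members over 4000 bases had -0.26 and -0.45 in the mice numbered 2, and between 0.07 and 0.30 in the others. Across the 40 members Spearman's rho of the deviation with length was -0.69 in mutant 2 and -0.70 in WT 2, and between 0.46 and 0.73 in the other 4 libraries. Genes are not independent replicates and deviations within a genotype sum to 0, so these are descriptions only. All 12653 genes showed the same signs, with rho of -0.52 in both mice numbered 2 and between 0.32 and 0.46 in the others.

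The genotypes were also compared apart in the libraries with each length order, a split made after that order was seen. The counts of genes below are descriptions and were not tested. Equal mouse numbers were not taken as a pairing, and mutants 1 and 2 were male while all WT littermates were female. Mutant mouse 2 lay above WT 2 for 33 of 40 members, with a median difference of 0.17 log2 units, against 51.4% of all genes. The mean of mutants 1 and 3 lay above that of WT littermates 1 and 3 for 33 of 40, with a median of 0.19, against 49.4% of all genes. All 12 short members, 13 of the 17 between and 8 of 11 long members had a positive log2 fold change. Their medians were 0.21, 0.22 and 0.09. The share positive among all genes of each length is not given here. With the trend on gene length removed from each library, 37 of 40 members were positive, but so were 60.7% of all genes. The member median was then 0.29 against 0.09 over all genes, and 15 members had no overlap (12.6% of all genes higher). Of the 8 without overlap on CPM, 6 were among those 15, all but Bysl and Nolc1.

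**Figure D5:**
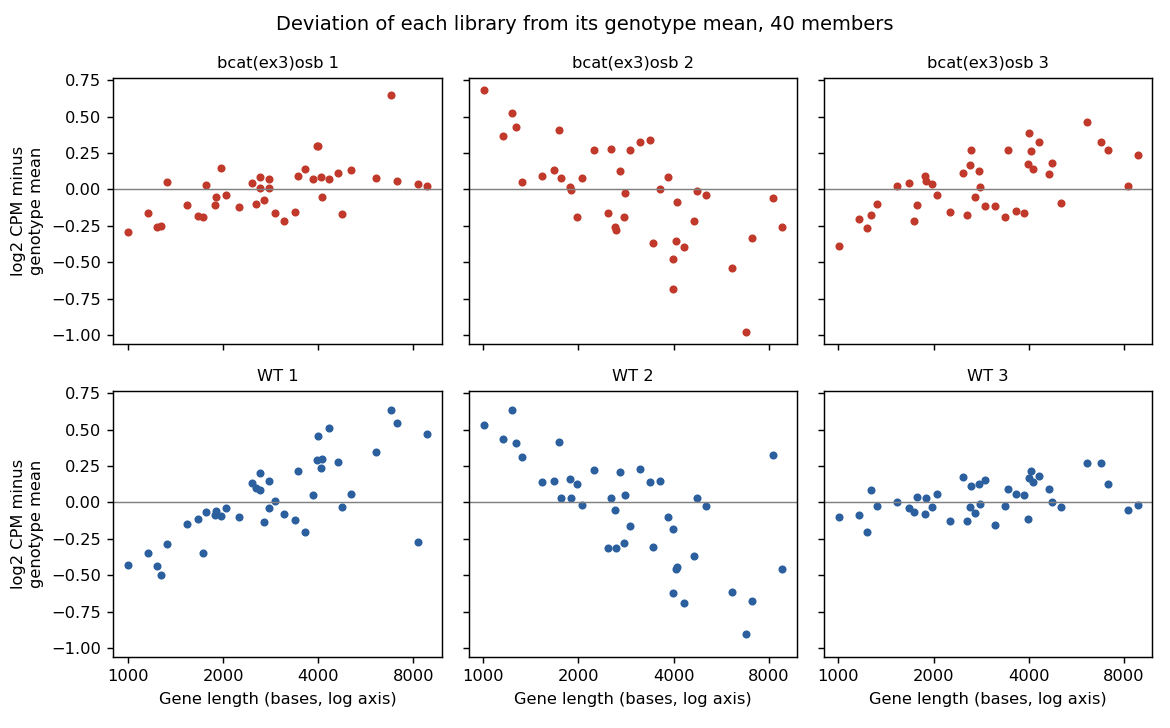
Deviation of each library from the mean of its genotype (log2 CPM) against gene length (bases, log axis) for the 40 members, 1 panel per mouse. Points fall with length in mutant 2 and WT 2 (rho -0.69 and -0.70) and climb in the other 4 panels.

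Other genes of the same pathway tilted the same way. Of 140 further genes, 138 passed the filter, 108 were positive (78.3%, against 50.3% of all genes), and their median log2 fold change was 0.16. By edgeR 0 were called in each direction, and 5 (3.62%) had an unadjusted p under 0.05, all on the higher side, against 3.43% of all genes. DESeq2 called 0 in each direction too. Mutant mice lay above WT littermates without overlap for 18 of 138 (13.0%, against 6.89% of all genes) and below for 0 (7.67%). The number of positive genes depended on the setting. On log2 FPKM plus 1 it was 88 of 138 (median 0.08), where 40.4% of all genes were positive. It was 93 with a sex covariate (median 0.10), 93 among females (0.08) and 96 without mutant 2 (0.12). With the length trend removed it was 124 (median 0.21), where 60.7% of all genes were positive. Among RNA polymerase I genes Polr1e, a subunit, stood at 50.3 ± 1.95 CPM in mutants against 37.1 ± 1.42 CPM in controls (SD, n = 3), and Taf1c, of its promoter factor, 50.6 ± 4.69 and 34.7 ± 5.82 CPM. In the large-subunit list of 44 genes 34 were positive, with the smallest p for Ddx27, a helicase, at 182 ± 24.1 against 132 ± 3.58 CPM, and Nle1 at 38.3 ± 9.22 against 26.4 ± 0.34 CPM. The small-subunit list had 29 of 35 positive, with Wdr46 at 140.3 ± 16.4 against 106 ± 7.29 CPM and Nob1, which cuts the last spacer from 18S rRNA, at 156 ± 18.9 against 116 ± 14.7 CPM. The exosome list, whose products degrade and trim RNA, had 11 of 14 positive, and Exosc1 and Exosc5 (log2 fold changes 0.53 ± 0.27 and 0.61 ± 0.33) overlapped between genotypes. In the list of snoRNP assembly 8 of 9 were positive, with Nufip1 and Ruvbl2 at 0.28 ± 0.22 and 0.31 ± 0.25. Of polyamine and nucleotide genes 17 of 23 were positive, and Adssl1 and Gmps had 0.31 ± 0.21 and 0.27 ± 0.18.

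Markers of the gate and of other cell types differed in level between the genotypes, as did the sex of the mice. Of 10 stem and progenitor markers 8 were on the lower side in mutants (median log2 fold change -0.37), and Ly6a (-1.06) and Procr (-0.63) were lower without overlap. Their summed level lay between 3153 and 4002 CPM in mutants and between 2995 and 4921 CPM in controls. All 6 granulocyte-monocyte markers had mutant values above WT values without overlap, with a summed level between 6466 and 11369 CPM in mutant and between 1339 and 3283 CPM in WT littermates, and none was at 0. The 6 B cell markers summed to between 66.8 and 286 CPM in mutant and between 322 and 508 CPM in WT littermates, with 1, Pax5, at 0 in mutant 2. The 4 macrophage markers in the tables summed to between 6.06 and 32.2 CPM against 33.9 and 57.3 CPM. T cell markers stayed at or under 2.05 CPM, erythroid markers at or under 19.2 CPM and osteoblast and stromal markers at or under 25.6 CPM in sum. The part of these markers' cells in the tilt of the members was not tested. Both male mice were mutants, and the member median was 0.16 with sex as a covariate and 0.14 with the 1 female mutant against the 3 WT littermates. Of 21 cell cycle genes 8 were positive (38.1%, against 50.3% of all genes), with a median log2 fold change of -0.05. Of the 21, 0 had non-overlapping groups, against 6.89% of all genes higher and 7.67% lower.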

How the data were processed

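For each library the authors deposited raw counts by gene, and a second table with gene length, the same counts and FPKM. The submitters' processing notes list featureCounts 1.5.0-p3, STAR 2.5.2b, bcl2fastq 2.17 and mm10, and the labels' protocols name a stranded total RNA kit. Not given in the sources used here are the strand setting, the handling of shared reads and the gene annotation. Exons of 16 members overlap another gene on the other strand by GENCODE M21, among them Pes1, Rrp1b, Bysl, Rrp9 and Nop56, and Nme1 overlaps a readthrough gene, so their counts are uncertain.

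Counts were filtered with filterByExpr (minimum count 10, total 15) and tested with edgeR 4.0.16 in R 4.3.3: TMM scaling, quasi-likelihood fit on genotype alone, two-sided F test, Benjamini-Hochberg adjustment over all 12653 genes, threshold 0.05. SE came from the F statistic. Log2 CPM used a prior count of 1. The steps were tested on simulated counts with changes larger than those of the members and no length trend. That test therefore does not cover differences of the members' size. DESeq2 1.42.0 and limma 3.58.1 were used for alternatives, with log2 of FPKM plus 1 or 0.1. The members and lists were chosen with earlier results of these data known, so list counts stand beside those over all genes and have no test. Values per mouse were given for Myc, the 2 members of each role with the smallest unadjusted p, Ncl, Fbl, Nop56, Odc1, Polr1b and the member with the lowest log2 fold change. Up to 2 genes with the smallest p were named from each list of further pathway genes. Nop10 and Nhp2l1 were named in addition, as snoRNP core genes, after their values were seen. Rrp1b, Pes1, Bop1, Wdr12, Dkc1, Heatr1 and Nme1 were added after their values were seen.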

Additional observations from a re-analysis of the deposited data

How the results depend on the processing

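The tilt of the members kept its direction under the 19 alternatives: 21 members were positive and 1 (Noc3l) negative in all of them, and the number positive lay between 26 and 37. Their median log2 fold change was 0.19 with RLE scaling or DESeq2, 0.14 with upper-quartile scaling, 0.20 by limma-voom, 0.11 and 0.12 on log2 of FPKM plus 1 and plus 0.1, 0.16 with a sex covariate, 0.14 among females, 0.29 with the length trend removed, and between 0.13 and 0.21 when each mouse was left out in turn. It was 0.18 without both mice numbered 2, an alternative chosen after seeing the data. In both settings that use sex, the genotypes are compared through a single mutant, mouse 3. Genes called over all genes, 0 and 0, became 101 higher and 68 lower by DESeq2 and 1 higher with the length trend removed. With a mouse left out they ran from 0 to 4 higher, the 4 without mutant mouse 3, and from 0 to 13 lower, with 13 without mutant mouse 1 and 2 without mutant mouse 3. No alternative called a member. Myc passed by DESeq2 alone (0.79, adjusted p = 0.000202). Its adjusted p ran from 0.091 to 1.00 over the other alternatives.

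With the mouse number as a replicate block, 5 genes were called higher and 0 lower, and the member median was 0.20. Deviations of same-numbered mice correlated at 0.11, 0.34 and 0.06, and mutant mouse 1 correlated best with WT mouse 3 (0.13). The pair numbered 2 was the highest of all 9 pairs, but not every same-numbered pair passed 0.1 and the labels give the number no meaning, so the numbers were not taken as a pairing.

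Over the 19 alternatives 18 members turned sign in at least 1, among them Mybbp1a, Nme1, Utp20, Rrp12 and Wdr12. Of the genes with a fold change in the text, Cad was 0.01 with a sex covariate and between -0.51 and 0.06 with a mouse left out. Fbl was -0.09 with a sex covariate, -0.11 among females and between -0.07 and 0.38 with a mouse left out. Ncl was -0.03 with upper-quartile scaling, -0.04 on log2 FPKM with either pseudocount, and between -0.11 and 0.19 with a mouse left out. Odc1 was 0.03 with the length trend removed and between -0.23 and 0.01 with a mouse left out. Polr1b was between -0.08 and 0.44 with a mouse left out. Wdr12 was -0.01 among females. Kit was 0.09 with a sex covariate and 0.07 among females. The cause was not tested. Leaving out 1 mouse turned the sign of, or moved by over 1.5 times, the values of 32 of 40 members. The 8 within that bound were Rrs1, Ppan, Rrp1b, Nolc1, Bysl, Rrp9, Nop56 and Gnl3. Of 684 values of single named genes, 664 kept their sign and side of the threshold. The main fit called 0 genes and no alternative called a member, so keeping that side mostly meant staying uncalled. The alternatives also reuse the same 6 libraries. Differences of the members' size are near their standard errors, whose median was 0.20, at 3 mice a genotype.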
